A study of Mus musculus with 2 samples.

Results

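Messenger RNA of 10 genes that control the making of mitochondria and the thermogenic program was compared between MALAT1-knockdown and control C3H10 adipocytes. The genes were taken by symbol from the deposited table of reads per gene, and all 10 were found among the 46095 genes listed. They are the coactivators Ppargc1a and Ppargc1b, the transcription factors Esrra, Nrf1 and Gabpa, the mitochondrial transcription proteins Tfam, Tfb2m and Polrmt, the brown fat coregulator Prdm16 and the mitochondrial carrier Ucp2. C3H10 (C3H/10T1/2) cells are a mouse mesenchymal line that forms adipocytes after induction, and the labels describe them as fibroblast precursors with adipogenic ability of strain C57BL/6. Cells were transfected with an antisense oligonucleotide (ASO) at 100 nM, recovered after 8 hours, grown to confluence and induced with isobutyl-1-methylxanthine, dexamethasone, troglitazone and insulin for 2 days, then kept with insulin until RNA collection at day 6 of differentiation. Both groups shared this treatment, including troglitazone, a synthetic agonist of PPAR-γ. The negative control group received a control ASO and the MALAT1-knockdown group an ASO against the nuclear noncoding RNA MALAT1, with 1 library in each group. Which ASO against MALAT1 was sequenced is not given in the sources used here.

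Mitochondrial biogenesis joins the nuclear and the mitochondrial genome. The PGC-1 coactivators bind DNA only through partners such as ERRα (encoded by Esrra), NRF-1 and GABP (also called NRF-2), and these factors switch on respiratory chain genes in the nucleus. They also act on the genes for Tfam, Tfb2m and Polrmt, which together transcribe mitochondrial DNA. In brown and beige fat, Prdm16 and PGC-1α direct the thermogenic program, whose effector Ucp1 lets protons pass the inner membrane without making ATP, while white adipocytes also raise their mitochondrial content as they mature.

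The control library held 58147539 reads and the knockdown library 61653549 reads, scaled by edgeR's TMM factors of 0.992 and 1.01. Malat1 had 170402 control reads and 45396 knockdown reads, which left 24.7% of the control level after scaling. Each of the 17356 genes with at least 10 reads over both libraries was tested on its reads (exact binomial test, two-sided, Benjamini-Hochberg adjusted over all genes tested). Called genes had a log2 ratio (knockdown over control) of at least 1 in size together with an adjusted p under 0.05. With 1 library per group nothing was checked between replicates: each test sets these 2 libraries, not the conditions, against each other, and every 95% interval covers counting error only. A bulk sample cannot tell fewer cells of a type from less RNA per cell.

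Of the 10 genes, 1 was called lower in MALAT1-knockdown cells, beside 4.09% of all genes tested, and 0 were called higher, beside 2.18% of all genes. The called gene was Ucp2, which reached the filter of 10 summed reads through the control library, where it is high. With at least 10 reads required in each library Ucp2 was not tested and 0 of the other 9 genes were called. At 1.5-fold with an adjusted p under 0.05, 2 of the 10 were lower (Ucp2 and Ppargc1b), beside 7.27% of all genes, and 0 were higher, beside 4.37%. At any fold, 6 were lower (Ucp2, Ppargc1b, Tfb2m, Esrra, Polrmt and Tfam), beside 23.8% of all genes, and 2 were higher (Ppargc1a and Gabpa), beside 24.2%. Nrf1 and Prdm16 did not pass the test. With edgeR's exact test at a preset biological coefficient of variation of 0.1, Ucp2 and Ppargc1b still passed at any fold, while the adjusted p of the other 6 ran from 0.331 (Tfb2m) to 0.975 (Tfam). The median log2 ratio of the 10 genes was -0.20, against -0.0031 over all genes tested. All 10 passed the filter of 10 reads, with summed reads from 25 for Prdm16 to 10311 for Gabpa.

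**Figure D1:**
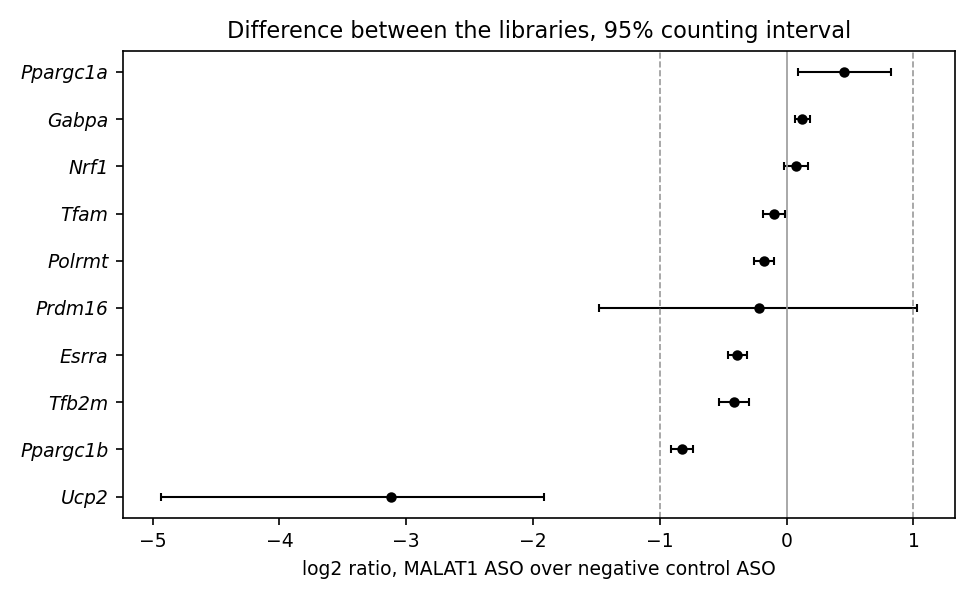
Log2 ratio of knockdown over control reads for each of the 10 genes, with its 95% counting interval as a bar, a solid line at 0 and dashed lines at the call threshold of 1 in either direction. Ucp2 alone lies past the threshold, Ppargc1a lies above 0 at 0.45, and the interval of Prdm16 reaches both dashed lines.

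The levels of the genes were compared per length, as reads per kilobase of the longest annotated transcript per 1000000 scaled reads (RPKM). In control cells Esrra was highest at 22.6 RPKM, followed by Gabpa at 16.5, Ppargc1b at 13.1, Polrmt at 10.4, Tfam at 9.39, Tfb2m at 9.24 and Nrf1 at 7.65. Ppargc1a at 0.287 RPKM, Ucp2 at 0.191 and Prdm16 at 0.0262 were far below these. The counting intervals of Tfam and Tfb2m overlapped, as did those of Ppargc1a and Ucp2. In knockdown cells the order was Gabpa at 18.0 RPKM, Esrra at 17.2, Polrmt at 9.17, Tfam at 8.77, Nrf1 at 8.04, Ppargc1b at 7.42, Tfb2m at 6.95, Ppargc1a at 0.393, Prdm16 at 0.0225 and Ucp2 at 0.0202. Ppargc1b moved from rank 3 to rank 6, and Esrra and Gabpa changed places at the top, although their intervals overlapped in knockdown cells. Intervals of neighbours also overlapped there between Polrmt and Tfam, between Nrf1 and Ppargc1b, between Ppargc1b and Tfb2m, and between Prdm16 and Ucp2.

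**Figure D2:**
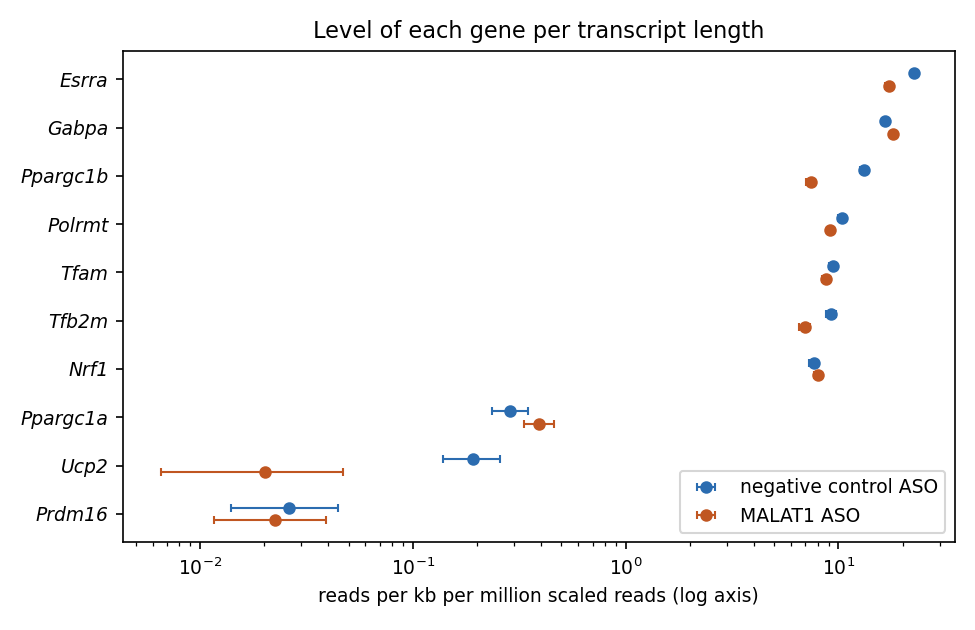
Level of each gene in RPKM on a log axis in the control library (blue) and the knockdown library (orange), with exact 95% Poisson intervals of the read count as bars. The 7 genes at the top lie between 6.95 and 22.6 RPKM in both libraries, and Ppargc1a, Ucp2 and Prdm16 lie below 1 RPKM.

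The log2 ratios of the PGC-1 coactivators had opposite signs. Ppargc1b, which encodes PGC-1β, an activator of oxidative and lipid genes, had 2770 control reads and 1685 knockdown reads. The knockdown level was 56.5% of control, a log2 ratio of -0.82 (95% interval -0.91 to -0.74, adjusted p = 4.50e-77, exact binomial test). Among the 6993 genes with 1000 to 10000 summed reads, 2.79% were lower by 1.5-fold, and the middle 50% of log2 ratios ran from -0.13 to 0.14. Ppargc1a encodes PGC-1α, the cold- and cAMP-inducible coactivator. It had 107 control reads and 158 knockdown reads, a log2 ratio of 0.45 (95% interval 0.09 to 0.82, adjusted p = 0.0294, exact binomial test). Ppargc1a no longer passed with reads divided by 4, an alternative chosen after the data were examined (adjusted p = 0.549, exact binomial test), or with edgeR's exact test at a coefficient of variation of 0.1 (adjusted p = 0.482). The difference between the log2 ratios of Ppargc1a and Ppargc1b was 1.28 (95% interval 0.90 to 1.66), a pair chosen after its values were seen. Per length, Ppargc1b exceeded Ppargc1a 45.8 times in control cells and 18.9 times in knockdown cells. The related coactivator Pprc1 (PRC), which is known to respond to growth signals, had 3237 and 4442 reads and a log2 ratio of 0.35 (95% interval 0.28 to 0.42). Its log2 ratio and that of Ppargc1a differed by 0.11, with an interval from -0.26 to 0.48.

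Ppargc1b spans positions 61298136 to 61400431 of chromosome 18 (minus strand), and the microRNA gene Mir378a lies inside it on the same strand (GENCODE M21, GRCm38). Mir378a had 56 control reads and 35 knockdown reads, a log2 ratio of -0.78 (95% interval -1.44 to -0.15). Reads of this short gene and reads of the host transcript cannot be told apart in the table. Ppargc1a spans positions 51454250 to 51567726 of chromosome 5 (minus strand), and the 4 annotated genes that overlap it are unclassified and were not matched to a symbol in the table.

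Of the DNA-binding factors Esrra, Nrf1 and Gabpa, only Esrra was lower. Esrra encodes ERRα, an orphan nuclear receptor that PGC-1 coactivators bind, and had 3244 control reads and 2663 knockdown reads. Its log2 ratio was -0.39 (95% interval -0.47 to -0.32, adjusted p = 3.78e-24, exact binomial test). Nrf1, nuclear respiratory factor 1, is a different gene from Nfe2l1 and Nfe2l2, which share similar protein names. It had 1784 and 2019 reads, a log2 ratio of 0.07 with an interval from -0.02 to 0.16 that includes 0. Gabpa, the DNA-binding subunit of GABP, had 4744 and 5567 reads and was slightly higher, with a log2 ratio of 0.12 (95% interval 0.07 to 0.18). Esrra lay below Nrf1 by 0.46 on the log2 scale (95% interval 0.34 to 0.58 in size). The activating subunits of GABP had intervals close to 0: Gabpb1 had 1411 and 1645 reads with a log2 ratio of 0.11 (adjusted p = 0.0597, exact binomial test), and Gabpb2 had 4176 and 4547 reads with one of 0.02. The ends of Esrra and Gabpa overlap genes on the opposite strand, Trmt112 by 73 bases and Atp5j by 701 bases. Trmt112 had a log2 ratio of 0.16 and Atp5j one of -0.09, each opposite in sign to the gene it overlaps.

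The mRNAs of the mitochondrial transcription proteins had log2 ratios between -0.41 and -0.10. Polrmt, the RNA polymerase of mitochondria, had 2566 control reads and 2443 knockdown reads, a log2 ratio of -0.18 (95% interval -0.26 to -0.10). Tfb2m, which opens the promoter for the polymerase, had 1306 and 1057 reads and a log2 ratio of -0.41 (95% interval -0.53 to -0.29, adjusted p = 3.74e-11, exact binomial test). Tfam, which bends and packages mitochondrial DNA, had 2258 and 2270 reads and a log2 ratio of -0.10 (95% interval -0.18 to -0.01, adjusted p = 0.0460, exact binomial test). With library totals the log2 ratio of Tfam was -0.08 and its adjusted p 0.133, with DESeq2's size factors -0.10 and 0.0519, and with upper-quartile factors -0.09 and 0.0752, so whether it passed the test depended on the scaling. It also failed to pass when genes with at least 1 summed read were kept (adjusted p = 0.0599, exact binomial test) and with reads divided by 4 (adjusted p = 0.593, exact binomial test). With reads divided by 4, Polrmt and Gabpa did not pass either, at adjusted p = 0.126 and 0.123 (exact binomial test), while Esrra and Tfb2m did. Tfam and Tfb2m differed by 0.31 on the log2 scale (95% interval 0.17 to 0.46). Tfb1m, the paralog that methylates mitochondrial ribosomal RNA, had 696 and 658 reads and a log2 ratio of -0.19 (95% interval -0.34 to -0.03).

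The promoters of Polrmt, Tfam, Tfb2m and Gabpa are shown because NRF-1 and GABP, whose own genes are among the 10, are known to act on the mitochondrial transcription genes. Each run of 300 bases holds 250 bases before and 50 after the RefSeq start of the gene (build GRCm38.p6), 5′ to 3′ on the strand of the gene. Capitals mark matches, on either strand, to the NRF-1 letters GCGCANGCGC or the GABP letters CCGGAAG.
Polrmt promoter, chr10:79746532-79746831, minus strand: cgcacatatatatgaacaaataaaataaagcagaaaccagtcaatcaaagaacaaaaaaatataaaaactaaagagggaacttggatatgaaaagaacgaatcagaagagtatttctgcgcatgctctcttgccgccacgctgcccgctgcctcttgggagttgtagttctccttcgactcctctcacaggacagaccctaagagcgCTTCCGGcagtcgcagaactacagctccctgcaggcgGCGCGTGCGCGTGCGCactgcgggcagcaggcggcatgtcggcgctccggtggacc
Tfam promoter, chr10:71237995-71238294, minus strand: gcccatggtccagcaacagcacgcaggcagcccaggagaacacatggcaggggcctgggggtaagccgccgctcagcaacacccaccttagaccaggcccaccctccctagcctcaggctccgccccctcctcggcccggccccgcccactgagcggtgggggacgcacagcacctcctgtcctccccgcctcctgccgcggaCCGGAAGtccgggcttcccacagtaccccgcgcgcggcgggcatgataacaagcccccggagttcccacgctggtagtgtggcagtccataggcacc
Tfb2m promoter, chr1:179546227-179546526, minus strand: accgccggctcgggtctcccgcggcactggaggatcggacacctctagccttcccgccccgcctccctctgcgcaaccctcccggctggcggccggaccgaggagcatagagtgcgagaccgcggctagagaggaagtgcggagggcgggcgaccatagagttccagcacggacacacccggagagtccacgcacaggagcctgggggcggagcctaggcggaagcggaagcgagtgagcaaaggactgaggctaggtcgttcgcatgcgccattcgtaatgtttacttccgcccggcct
Gabpa promoter, chr16:84834874-84835173, plus strand: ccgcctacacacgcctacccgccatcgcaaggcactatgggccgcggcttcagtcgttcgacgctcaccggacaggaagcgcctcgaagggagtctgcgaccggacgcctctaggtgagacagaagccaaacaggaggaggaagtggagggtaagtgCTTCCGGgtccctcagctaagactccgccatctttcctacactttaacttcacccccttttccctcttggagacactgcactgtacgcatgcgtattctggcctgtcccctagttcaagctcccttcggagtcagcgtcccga
Windows were found for 9 of the 10 genes, with 10 windows in all because Nrf1 has an alternative start. The GABP letters were in the windows of 3 genes (Polrmt, Tfam and Gabpa), and in 8.86% of all 32851 promoter windows. The NRF-1 letters were in the window of 1 gene, Polrmt, where a pair of matches on the reverse complement overlap, and in 4.6% of all windows. In Polrmt these span bases -6 to 10 around the start. The ERR letters TCAAGGTCA were in 0 of the 9 genes and in 0.423% of all windows, and the cAMP response letters TGACGTCA in 0 of the 9 and in 1.79%. Genes with the GABP letters had log2 ratios of -0.18 (Polrmt), -0.10 (Tfam) and 0.12 (Gabpa). A match is a description of the letters, not a site.

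Ucp2 and Prdm16 were the members with the fewest reads. How reads matching several places were counted is not given in the sources used here, so the level, rank and ratio of Ucp2 hold for reads as deposited, and any part of this in its low count was not tested. Ucp2, a carrier related to Ucp1 that exports metabolites from mitochondria, had 44 control reads and 5 knockdown reads. Its log2 ratio was -3.12 (95% interval -4.94 to -1.91, adjusted p = 1.05e-08, exact binomial test), which left 11.5% of the control level. Genes with under 100 summed reads were called often: 11.5% of these 4174 genes were called lower and 7.47% higher. With edgeR's exact test, Ucp2 was called when the coefficient of variation was set to 0.1 or 0.2 and not when it was set to 0.4, while the 1.5-fold call of Ppargc1b held at 0.1 and not at 0.2. Ucp2 was also called when reads were divided by 4, and it was not tested when each library had to hold 10 reads. Prdm16, the zinc finger coregulator of brown fat, had 13 control reads and 12 knockdown reads, and its log2 ratio of -0.22 had an interval from -1.48 to 1.03. A difference in Prdm16 was not detectable at this depth, and its interval reached past 2-fold in both directions.

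**Figure D3:**
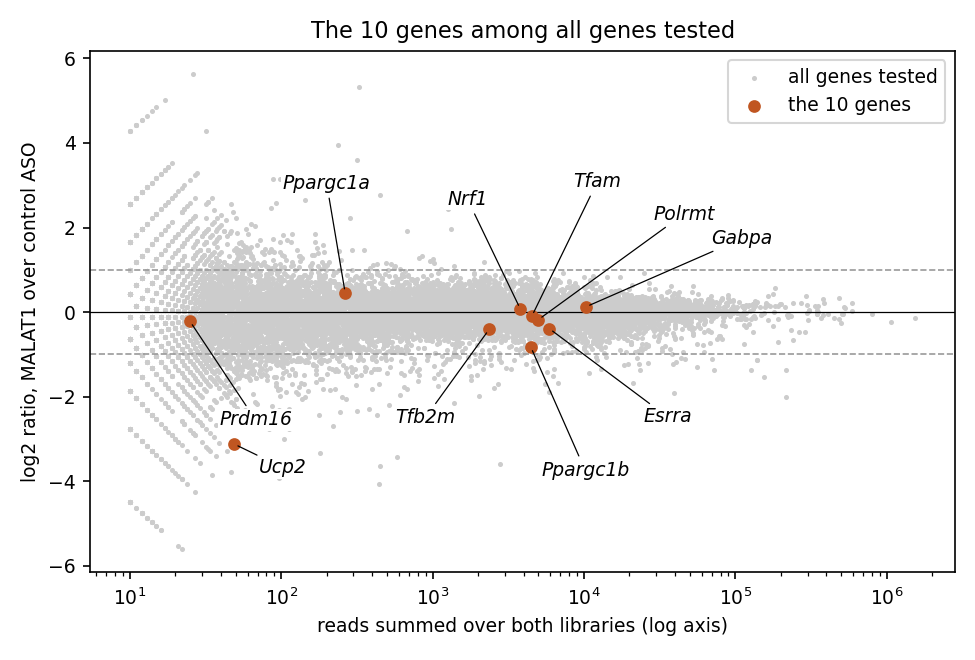
Log2 ratio against the reads summed over both libraries (log axis) for all 17356 genes tested (grey) and the 10 genes (orange), with dashed lines at the call threshold. The spread of grey points widens toward few reads, where Ucp2 and Prdm16 lie, and Ppargc1b lies just inside the lower dashed line.

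Ucp2 spans positions 100493337 to 100502020 of chromosome 7 (plus strand, GENCODE M21), next to its paralog Ucp3. Ucp3 had 78 control reads and 21 knockdown reads, a log2 ratio of -1.97 (95% interval -2.77 to -1.29), and was called lower. Estimated from the reads with no prior count, unlike the log2 ratios given for each gene, the log2 ratio of Ucp2 was 1.24 below that of Ucp3, with an interval from 3.10 below to 0.34 above, so these libraries did not separate them. Dnajb13, whose end overlaps Ucp2 by 305 bases on the opposite strand, had 2 control reads and 0 knockdown reads. The other 6 genes within 4 places on either side had log2 ratios from -0.19 (Ppme1) to 0.46 (P4ha3). Ucp1 itself had 1 read in each library, under the floor of 3 reads, so no ratio is given. Every listed gene with at least 1000 reads in each library had a log2 ratio above that of Ucp2. The genes nearest to Ucp2 were therefore those with the lowest ratios in this single contrast. They were the adipocyte markers Gpd1, at a distance of 1.21, and Cfd, at 1.44. In the other lists the nearest genes were Cebpa, at 1.72, and Bnip3, at 2.13. Cebpa is also among the adipocyte markers, and none of these distances was read as likeness.

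Of 23 thermogenic effectors, 16 had enough reads to be tested, 5 were called lower and 0 higher, with a median log2 ratio of -0.59. Over all genes 4.09% were called lower, and 11.5% of those with under 100 summed reads. Of the 5, Cidea, Elovl3 and Fgf21 had under 10 knockdown reads and reached the filter through the control library, where they are high, so that 2 called genes (Cox8b and Kcnk3) remained among the 11 effectors with at least 10 reads in each library. The summed level of the effectors went from 350 to 376 CPM (reads per 1000000 scaled reads), 107% of control. Most of this sum came from Atp2a2 (224 and 247 CPM) and Slc6a8 (65.1 and 78.7 CPM), neither of which was called. Kcnk3, the called effector with the most reads, had 3.64 and 1.38 CPM, so the sum says little about the called genes. Cidea, a lipid droplet protein of brown fat, had 40 control reads and 4 knockdown reads, a log2 ratio of -3.28. Elovl3, a fatty acid elongase, had 37 and 6 reads, the cytochrome oxidase subunit gene Cox8b 56 and 13, and the hormone gene Fgf21 21 and 1, a log2 ratio of -3.95 with a wide interval from -9.87 to -1.86. All 4 had fewer than 100 reads in control cells, the range in which Ucp2 lies, and Kcnk3, a potassium channel gene with 210 and 86 reads, was the other called gene. Other effectors in that range did not pass the test. Cox7a1 with 21 and 13 reads (log2 ratio -0.78), Cpt1b with 32 and 20 (-0.77) and Plin5 with 8 and 4 (-1.02) lay below 0. Ckb with 6 and 14 reads (log2 ratio 1.05), Atp2a1 with 10 and 11 (0.02) and Acot11 with 97 and 106 (0.02) lay above 0. Among 22 thermogenic transcription factors and cofactors, 17 were tested and 1 was called lower, beside 4.09% of all genes. This was Cebpa, with 4071 and 1652 reads and a log2 ratio of -1.41, which also counts among the adipocyte markers. Ctbp1, a corepressor that binds Prdm16, had 7842 and 8848 reads and a log2 ratio of 0.07. The median of this list was 0.02.

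Regulators and partners of the PGC-1 coactivators were mostly close to 0. Of 22 partners and paralogs tested, 2 were called lower and 0 higher, beside 4.09% and 2.18% of all genes tested. Their median log2 ratio of -0.01 turned to 0.01 with library totals. The 2 called were the nuclear receptor genes Nr1h3 (LXRα), with 1912 and 905 reads and a log2 ratio of -1.19, and Ppard, with 118 and 52 reads and one of -1.28. Of 27 upstream regulators, 1 was called lower, near the 4.09% of all genes. This was Adrb3, the β3-adrenergic receptor that signals to PGC-1α through cAMP. Adrb3 had 1428 and 548 reads, a log2 ratio of -1.49 (95% interval -1.63 to -1.35), and the median of the list was -0.05. Nampt, an enzyme of NAD synthesis, had 43420 and 37790 reads and a log2 ratio of -0.31.

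Nuclear respiratory chain genes were lower together. Single mRNAs made from mitochondrial DNA went in both directions, with a summed level of 92.1% of control. All 35 respiratory chain and citric acid cycle genes of the list were lower at an adjusted p under 0.05, and 0 were called at the log2 threshold of 1. Over all genes tested, 23.8% were lower and 24.2% higher at an adjusted p under 0.05. The log2 ratios of the 35 ran from -0.59 to -0.11 with a median of -0.38. Small differences passed this test of counting error where reads were many, as for Uqcrb at -0.11 with 4045 and 4038 reads. Atp5b, the catalytic subunit of ATP synthase, had 129028 and 103671 reads and a log2 ratio of -0.42, and Atp5a1 had 65489 and 57670 reads and one of -0.29. The 13 mRNAs made from mitochondrial DNA had a median of -0.06, with 5 lower (ND1, ND4, ND5, COX1 and CYTB) and 3 higher (ND2, ND6 and ATP8) at an adjusted p under 0.05. COX1, with the most reads, had 784815 and 763826 reads and a log2 ratio of -0.15. ND2 had 77687 and 93024 reads and one of 0.15, and ND6 had 877 and 1189 reads. Of the 13, 1 was called higher, ATP8, with 40 and 91 reads, beside 2.18% of all genes. ND3 had 22 and 18 reads and COX2 had 772 and 842 reads, and how reads matching several places were counted is not given in the sources used here.

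Mitochondrial DNA replication genes had a median log2 ratio of -0.07 over 17 genes, with 0 called. Lonp1, a protease of the nucleoid, had 10130 and 7977 reads and a log2 ratio of -0.45, and Polg, the mitochondrial DNA polymerase, had 3912 and 3927 reads and one of -0.10. The 25 genes for mitochondrial RNA processing had a median of -0.17, with 0 called. At an adjusted p under 0.05, 14 were lower and 1 higher, beside 23.8% and 24.2% of all genes. Hsd17b10, a subunit of mitochondrial RNase P, had 8221 and 6613 reads and a log2 ratio of -0.42, close to that of Tfb2m, and Lrpprc, which stabilizes mitochondrial mRNAs, had 6161 and 5668 reads and one of -0.23. The 28 genes for fusion, fission, import and mitophagy had a median of -0.20 with 0 called, and Hspa9, the import motor chaperone, had 45665 and 32975 reads and a log2 ratio of -0.58. Among 8 uncoupling proteins and near carriers, only Ucp3 was called, beside 4.09% of all genes called lower. The ADP/ATP carrier Slc25a4 had 24223 and 26218 reads and a log2 ratio of 0.01. The median of the 10 genes, at -0.20, lay between those of the respiratory chain list and of the partners.

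**Figure D4:**
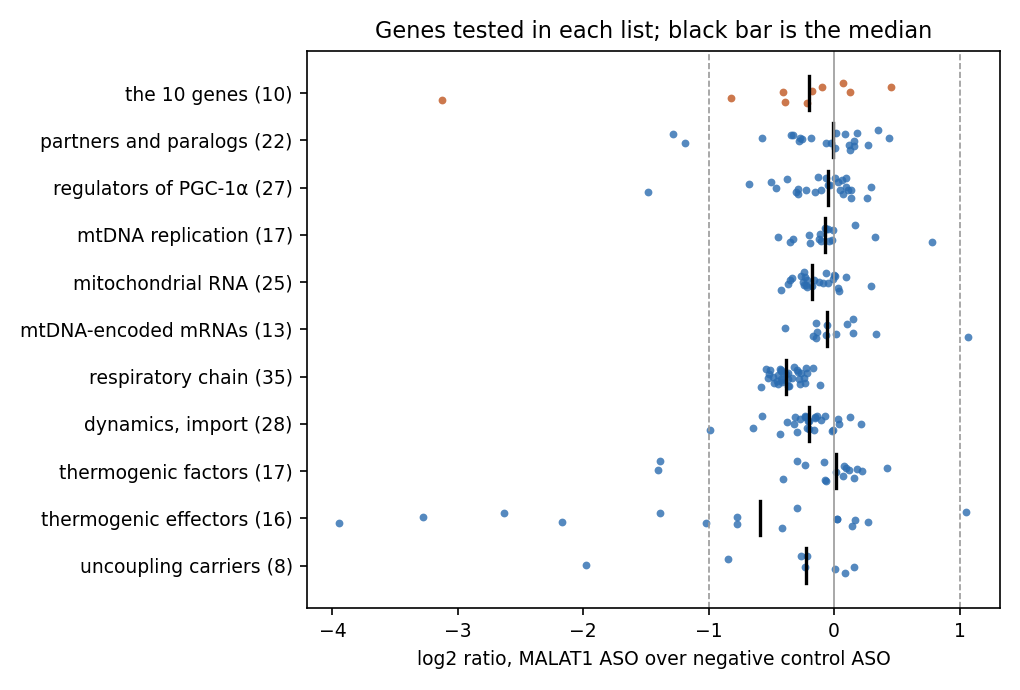
Log2 ratio of each tested gene in the 10 genes (orange) and in 10 lists of related genes (blue), with the number tested in parentheses, the median as a black bar and dashed lines at the call threshold. Respiratory chain genes lie in a narrow band below 0, and thermogenic effectors reach from -3.95 to 1.05.

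Adipocyte markers were lower, as were Ucp2, Ppargc1b, Tfb2m, Esrra, Polrmt and Tfam among the 10 genes at an adjusted p under 0.05. Ppargc1a and Gabpa were higher, and Nrf1 and Prdm16 did not pass the test. Of 19 adipocyte markers tested, 14 were called lower and 0 higher, beside 4.09% and 2.18% of all genes tested. Their summed level went from 10561 to 4582 CPM, 43.4% of control. Fibroblast and preadipocyte markers went from 19769 to 21600 CPM, with 1 of 16 called higher (Cd34) and Dlk1 at 0 reads in both libraries. At an adjusted p under 0.05 and any fold, 11 of the 16 were higher and 3 lower, 2 of these by 1.5-fold. Their log2 ratios reached down to -0.99. The summed level of the 10 genes went from 326 to 288 CPM, 88.2% of control. Among members with over 1000 reads, Ppargc1b had the lowest level relative to control, at 56.5%. Myeloid markers summed to 9.43 and 11.2 CPM, with 1 of 4 tested called higher and Ptprc, Adgre1 and Itgam at 0 reads. Endothelial markers summed to 1.06 and 1.22 CPM, with 1 of 3 tested called higher. Skeletal muscle markers summed to 38.0 and 33.4 CPM, with 0 of 2 tested called and Myod1 and Myog at 0. Osteoblast and chondrocyte markers summed to 155 and 212 CPM, with 0 of 5 tested called and all 5 above 0. The share of these cell types in the differences of the 10 genes was not tested. Of 16 reference genes, 0 were called, and their summed level was 13162 and 13146 CPM. At an adjusted p under 0.05 and any fold, 5 of them were lower and 6 higher. The lowest, Sdha at a log2 ratio of -0.42, is also among the 35 respiratory chain genes.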

How the data were processed

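RNA was sequenced as 1 library per group after rRNA depletion with a directional kit. The authors deposited raw counts of reads per gene symbol, without normalization, and their processing notes name HISAT2 and GRCm38. The counting tool, the annotation, the strand setting and the treatment of duplicate or multiply mapped reads are not given in the sources used here. Genes with at least 10 reads over both libraries were kept, and library sizes were scaled by TMM (edgeR 4.0.16, R 4.3.3). Each log2 ratio used a prior count of 0.5. Because 1 library per group leaves no residual degrees of freedom for edgeR's quasi-likelihood test, reads were tested with an exact binomial test, two-sided by doubling the smaller tail, with Clopper-Pearson 95% intervals (scipy 1.17.1, Python 3.11.15). Differences between log2 ratios of a pair of genes came with exact conditional intervals. The code of the test was checked on simulated reads with counting error only and changes planted in genes with many reads. That check cannot speak to the spread between cultures or to genes with few reads. Transcript lengths, positions and overlaps came from GENCODE M21, and promoters from RefSeq. Alternatives were other scalings (DESeq2 1.42.0 for size factors), filters, prior count, fold thresholds and edgeR's exact test with preset variation. The 10 genes, the gene lists and the comparisons were chosen with earlier results of these data known. Context genes were named by rule: up to 4 called genes per list by the interval bound nearest 0, filled to 2 with the most reads. Genes outside this rule were named after values were seen, for their role, position, reads or ratio. They included the effectors Kcnk3, Ckb, Atp2a1, Acot11, Cox7a1, Cpt1b, Plin5, Atp2a2 and Slc6a8. Gpd1, Cfd, Pprc1, Gabpb1, Gabpb2, Tfb1m, Uqcrb, overlapping genes and neighbours were also among them.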

Additional observations from a re-analysis of the deposited data

How the results depend on the processing

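No paired analysis was possible because each group had 1 library, and for the same reason no library could be left out. Under the 10 alternatives that gave log2 ratios, none of the 10 genes changed sign, except that Ucp2 gave no value where at least 10 reads were required in each library. The filters and the preset variation leave each log2 ratio unchanged by construction. The other scalings moved each ratio by less than the smallest in size (Nrf1, 0.07). The sign was therefore no check under these alternatives. Of 99 values under alternatives, 70 kept their side of the adjusted p threshold and 29 lost it, mostly under edgeR's exact test with preset variation, whose construction adds variance. The 1 of the 10 genes called lower (Ucp2) was 0 when at least 10 reads were required in each library, which removes Ucp2 because it had 5 reads in knockdown cells, and 0 at a preset coefficient of variation of 0.4, where an unadjusted p under 0.05 still called Ucp2. With no fold threshold, 6 were called lower and 2 higher. The 2 genes lower by 1.5-fold were 1 with at least 10 reads in each library, 1 at a coefficient of 0.2 and 0 at 0.4. Over all genes, the main test called 710 lower and 378 higher. The counts were 394 and 166 with at least 10 reads in each library, 4139 and 4207 with no fold threshold, and 210 and 45 with reads divided by 4. With edgeR's exact test they were 466 and 201 at a coefficient of 0.1, 95 and 22 at 0.2, and 0 and 1 at 0.4, where an unadjusted p under 0.05 gave 225 and 118. Other scalings shifted every log2 ratio upward by at most 0.02, which turned the sign of the median of all genes tested, of the partners (to 0.01) and of the reference genes (from -0.0038 to 0.02 with library totals) and of no other list, and all 35 respiratory chain genes stayed lower. Depth limits Prdm16 and Ucp2 most, and no value here measures the spread between cultures.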
